A study of Mus musculus with 2 samples.

Results

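The subunits of oxidative phosphorylation were followed as 99 genes, 86 encoded in the nucleus and 13 in the mitochondrial genome, out of 33696 genes in the count matrices. They were chosen by symbol alone, as the Nduf, Sdh, Uqcr, Cox5 to Cox8 and Atp5 families plus the protein genes of the mitochondrial genome. The Ndufaf assembly factors were left out. Of the nuclear genes 38 belong to complex I, 4 to complex II, 8 to complex III, 19 to complex IV and 17 to complex V. The symbol rule passes over a few subunits and partners (Cox4i1, Cyc1, Ndufab1), whose values are given separately, and takes in the pseudogene Cox5b-ps and the gene copies Ndufb4b and Ndufb11b, whose reads may be split with their parents.

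Droplet 3' single-cell RNA-seq was measured in 1 library per genotype of mice with floxed Bicd2 alleles, which encode an adaptor of the dynein motor. The WT mice had no Cre, and the KO mice carried Cre under the albumin promoter, which acts in hepatocytes. Whether Cre acted in the immune cells counted here was not tested. Mice of both genotypes were immunized each week for 3 weeks by intraperitoneal injection of 2.5 mg of S-100 (a soluble liver extract) in complete Freund's adjuvant, a model of autoimmune hepatitis. Per the series text, immune cells of the liver were taken from a Percoll gradient, and after red-cell lysis the live ones were sorted and pooled. The number and age of the animals are not given in the sources used here. Against this, the labels of both samples name peritoneal cells and give HFD as treatment, a conflict the labels do not settle. With a single library of each genotype the differences have no replicate check, and every interval is a 95% interval that covers counting error only.

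The libraries held 17410 WT and 15457 KO cells after filtering, with medians of 2775 and 2009 UMIs (distinct RNA molecules counted). Haemoglobin took 11.1% of the kept WT UMIs and 22.9% of the kept KO UMIs. The libraries shared 177 barcodes, of which 70 were kept in both. Bicd2 had 19.8 CPM (UMIs per 1000000 UMIs) over all kept WT cells (18.8 to 20.9) and 13.3 in KO (12.2 to 14.4), which does not measure a deletion made in hepatocytes. Cells were grouped into classes named "X-like" from marker genes, and 8 classes had at least 100 cells in each library.

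Oxidative phosphorylation makes ATP in the inner mitochondrial membrane. Complexes I and II take electrons from NADH and succinate, complexes III and IV pass them to oxygen while pumping protons together with complex I, and complex V, the ATP synthase, lets the protons flow back. All complexes but complex II combine proteins made in the cytosol from nuclear genes with proteins made inside mitochondria from mitochondrial DNA, so their subunits come from a pair of separately transcribed genomes.

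The promoters of 4 nuclear subunits are printed here because they span the range of differences described later. Ndufa8 (an accessory subunit of complex I) and Cox5a (a structural subunit of complex IV) were among the subunits with the lowest KO levels, while Sdha (the flavoprotein of complex II) and Cox6a1 (the widespread isoform of a complex IV subunit) were near or above their WT levels. The 4 were chosen after both their values and their motif matches had been seen. Sequences are from RefSeq on GRCm38.p6, a different build from the one named for the count files, and run 250 bases before to 50 bases after the annotated start. Capitals mark the core of the binding motif of NRF1, GCGCA then any base then GCGC, on either strand.
Ndufa8, chr2:36049289-36049588, minus strand: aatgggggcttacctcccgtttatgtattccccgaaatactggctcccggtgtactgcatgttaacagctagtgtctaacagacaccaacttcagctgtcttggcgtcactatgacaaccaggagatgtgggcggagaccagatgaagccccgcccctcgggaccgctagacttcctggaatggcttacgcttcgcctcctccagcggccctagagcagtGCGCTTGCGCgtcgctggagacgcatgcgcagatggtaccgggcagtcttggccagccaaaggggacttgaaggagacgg
Cox5a, chr9:57520982-57521281, plus strand: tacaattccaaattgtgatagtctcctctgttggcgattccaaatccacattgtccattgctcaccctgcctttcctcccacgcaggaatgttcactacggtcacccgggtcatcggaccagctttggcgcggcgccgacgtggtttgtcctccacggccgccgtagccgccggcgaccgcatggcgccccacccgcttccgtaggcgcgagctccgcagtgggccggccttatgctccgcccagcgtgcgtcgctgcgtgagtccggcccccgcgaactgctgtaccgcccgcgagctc
Sdha, chr13:74350191-74350490, minus strand: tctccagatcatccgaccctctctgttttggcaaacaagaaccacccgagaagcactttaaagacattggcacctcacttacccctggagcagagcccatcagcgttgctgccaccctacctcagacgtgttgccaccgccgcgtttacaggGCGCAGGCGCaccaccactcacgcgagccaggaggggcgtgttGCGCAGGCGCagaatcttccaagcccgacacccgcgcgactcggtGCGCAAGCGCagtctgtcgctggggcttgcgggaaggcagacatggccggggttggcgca
Cox6a1, chr5:115348909-115349208, minus strand: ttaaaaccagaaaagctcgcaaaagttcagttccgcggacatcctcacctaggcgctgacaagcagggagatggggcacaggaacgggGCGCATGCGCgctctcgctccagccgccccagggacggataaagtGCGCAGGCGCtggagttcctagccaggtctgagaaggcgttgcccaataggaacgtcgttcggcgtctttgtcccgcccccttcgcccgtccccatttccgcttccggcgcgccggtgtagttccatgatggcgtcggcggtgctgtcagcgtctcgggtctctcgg

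Of the 86 nuclear members 70 had a promoter in the RefSeq table, and 16 of them (22.9%) held the NRF1 letters, against 4.78% of all 27025 promoters of the same length. The letters CCGGAAGTG of the GABP motif were found in 2.86% of members and 2.06% of all promoters, and the letters AAGATGGCG of the YY1 motif in 8.57% and 1.49%, each on both strands. Members on both ends of the range held a match. Over members counted in all 7 leukocyte classes, the median of the per-gene median log2 ratios was -0.37 in the 16 with the NRF1 letters and -0.46 in the 49 without. Ndufs8, among the lowest subunits in KO, held none of the 3 motifs, as did Cox5a.

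Per the series text, KO beside WT compares immune cells of mice meant to lack Bicd2 in hepatocytes. In the plot of subunit shares by class, nuclear subunits took a smaller share of UMIs in KO in each of the 7 leukocyte classes, while mitochondrial-genome subunits did not follow them in every class. T-like cells had 1.30% of their UMIs on nuclear subunits in WT (1.295 to 1.305) and 0.893% in KO (0.888 to 0.899), a KO level 0.687 times that of WT (0.682 to 0.692). Neutrophil-like cells had 0.822% and 0.552%, a KO level 0.672 times that of WT (0.658 to 0.686). The libraries filled different clusters of these classes, and with clusters weighted alike the log2 ratio of sums was -0.23 in T-like cells and -0.038 in neutrophil-like cells. The neutrophil-like value is not an average of single clusters, since it was -0.20 within cluster 1, which held most KO cells, and -0.041 within cluster 6. B-like cells (0.719% and 0.543%) and NK-ILC1-like cells (1.33% and 1.01%), which resemble natural killer and type 1 innate lymphoid cells, had KO levels 0.756 and 0.754 times those of WT. The difference was smaller in the other leukocytes: KO levels were 0.809 times those of WT in plasmacytoid dendritic-like cells, 0.908 times in conventional dendritic-like cells and 0.889 times in monocyte-macrophage-like cells. In the last class the ratio of sums vanished, at a log2 value of 0.00028, when haemoglobin UMIs were left out of the total.

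**Figure D1:**
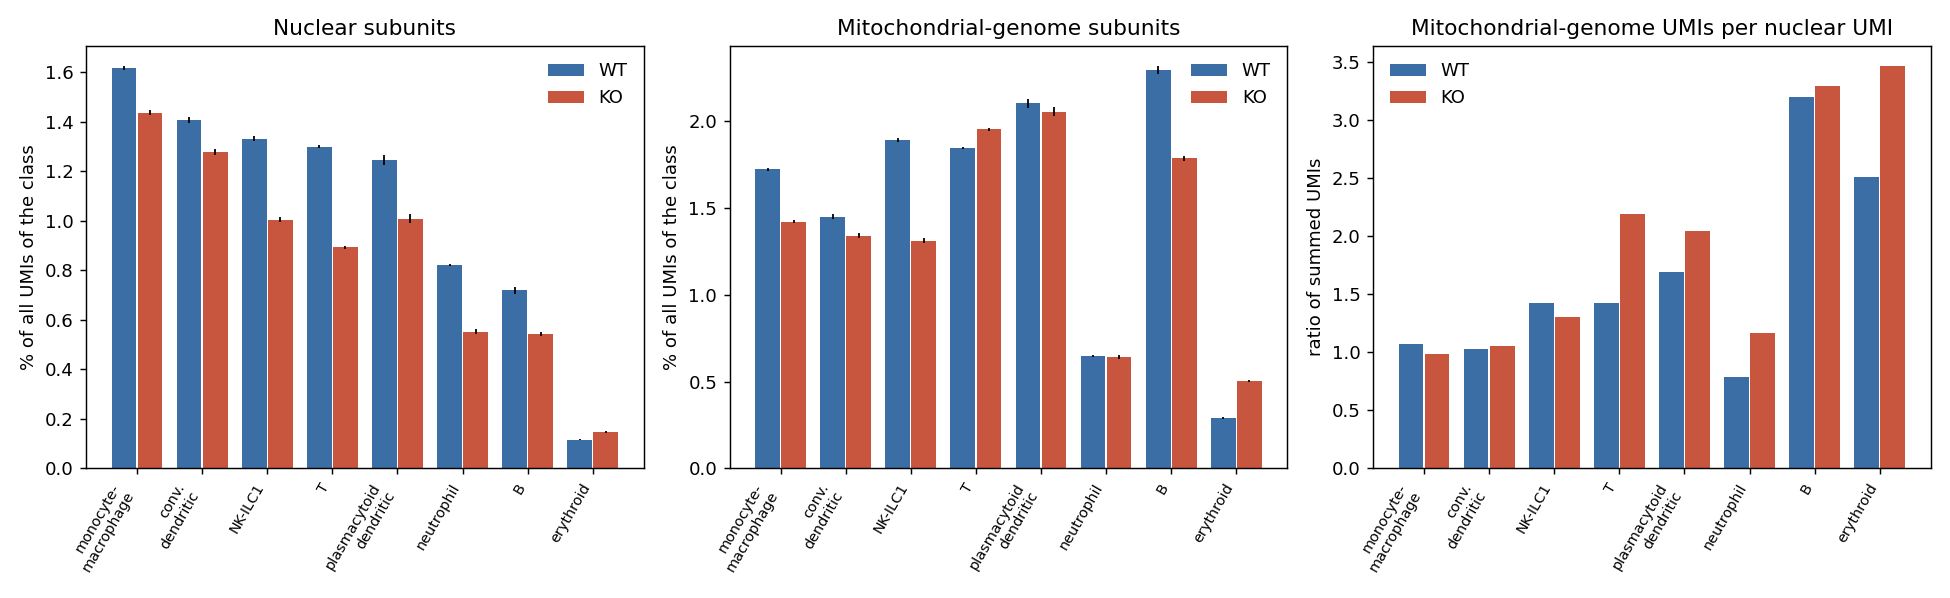
Share of each class's UMIs on the 86 nuclear subunits (left) and the 13 mitochondrial-genome subunits (middle), and UMIs of the second per UMI of the first (right), for WT (blue) and KO (red), with 1 library per bar and 95% binomial intervals of counting error on the shares. Nuclear shares are lower in KO in the 7 leukocyte classes, and T-like cells show it beside a mitochondrial-genome share of 1.84% in WT and 1.95% in KO.

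Mitochondrial-genome subunits took 1.84% of T-like UMIs in WT and 1.95% in KO, a KO level 1.06 times that of WT (1.053 to 1.064), which turned to a log2 ratio of -0.096 with clusters weighted alike. In neutrophil-like cells they took 0.647% and 0.643%, a ratio of 0.993 whose interval (0.974 to 1.012) includes equality. That value depends on the cells summed, with log2 ratios of 0.15 when clusters were weighted alike, 0.19 after thinning, 0.35 without cells holding a division-gene UMI and -0.30 with coarser clusters. They were lower in KO together with the nuclear subunits in NK-ILC1-like cells, at 1.89% and 1.31%, in B-like cells, at 2.29% and 1.79%, and in monocyte-macrophage-like cells, at 1.72% and 1.42%. In plasmacytoid dendritic-like cells they took 2.10% and 2.05%, a log2 ratio of -0.033 that was 0.14 with TMM scaling and 0.15 without haemoglobin in the total. A ratio of the 2 kinds of subunit within a library needs no scaling between libraries and is given next.

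T-like cells carried 1.42 mitochondrial-genome UMIs per nuclear UMI in WT and 2.19 in KO, 1.54 times as many (1.529 to 1.551). Neutrophil-like cells went from 0.788 in WT to 1.16 in KO, 1.48 times as many (1.449 to 1.509). The KO ratio was 1.21 times that of WT in plasmacytoid dendritic-like cells, 1.03 times in B-like cells, where it turned to a log2 value of -0.063 after thinning, 1.02 times in conventional dendritic-like cells, where it turned to -0.025 without cells holding a division-gene UMI, 0.927 times in monocyte-macrophage-like cells and 0.919 times in NK-ILC1-like cells. Over whole classes the T-like and neutrophil-like values were the highest of the 7, with log2 values of 0.62 and 0.56 beside 0.27 in plasmacytoid dendritic-like cells. With clusters weighted alike they were 0.13 and 0.19, and in T-like cluster 12 the value was -0.12. The gap between the 2 kinds of subunit varied among single clusters. It was widest in neutrophil-like cluster 1 and, among T-like clusters, in cluster 22. In neutrophil-like cluster 1 the mitochondrial-genome sum had a log2 ratio of 0.58 and the nuclear sum -0.20. In T-like cluster 22, with 68 KO cells, they had -0.18 and -0.73. The gap was narrower in T-like cluster 0, at -0.05 and -0.22, and in neutrophil-like cluster 6, at 0.034 and -0.041.

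Haemoglobin and red-cell transcripts differed between the libraries in every leukocyte class. The 10 erythroid markers together took 2.78% to 4.76% of UMIs in the WT leukocyte classes and 6.71% to 22.6% in the KO classes. Of these markers 8 to 10 were higher in KO in each leukocyte class. Klf1, a red-cell transcription factor, was at 0 in both libraries in 5 of the 7. Leaving haemoglobin genes out of the total moved the log2 ratio of summed nuclear subunits from -0.40 to -0.11 in B-like cells and from -0.41 to -0.19 in NK-ILC1-like cells, but only from -0.54 to -0.46 in T-like cells and from -0.57 to -0.51 in neutrophil-like cells. Neutrophil transcripts in other cells went the opposite way, with the 11 neutrophil markers at 0.352% of T-like UMIs in WT and 0.0545% in KO, and their part in the result was not tested.

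Gene by gene, the log2 ratio of KO over WT (CPM plus a pseudocount of 1) was computed for members with at least 20 UMIs over both libraries, and a ratio of 1.5-fold was used to count members. In T-like cells 81 of the 86 nuclear members passed that minimum, with a median of -0.55 beside -0.08 over all 13535 genes. Of these 38 were lower in KO by 1.5-fold or more and 0 higher, against 19.3% of all genes lower and 9.87% higher. In neutrophil-like cells 47 of 79 were lower and 0 higher (all genes 25.1% and 19.5%), with a median of -0.73 beside -0.03. With the neutrophil-like clusters weighted alike 7 were lower and 2 higher, with a median of -0.12, and the T-like count was 9 lower. The share of all genes under this weighting is not given, so these counts cannot be set against it. Within neutrophil-like clusters 1 and 6 the median was -0.26 and -0.13, beside 0.044 and -0.040 over all genes.

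In NK-ILC1-like cells 27 of 79 nuclear members were lower and 1 higher (all genes 19.6% and 6.58%), and in B-like cells 30 of 76 were lower and 0 higher (22.2% and 3.49%). The counts of lower members dropped to 14 and 6 without haemoglobin in the total. That total raises the ratio of every gene in these classes, and the share of all genes under it is not given. The B-like median of -0.44 stood beside -0.30 over all genes, and the NK-ILC1-like median of -0.42 beside -0.15. Plasmacytoid dendritic-like cells had 15 of 77 lower and 0 higher (17.9% and 5.34%), with a median of -0.30 beside -0.17. In monocyte-macrophage-like cells 10 of 80 were lower and 1 higher (12.3% and 6.05%), and in conventional dendritic-like cells 7 of 79 lower and 1 higher (9.67% and 6.03%). In the plasmacytoid dendritic-like, monocyte-macrophage-like and conventional dendritic-like classes the share of members lower by 1.5-fold was near that of all genes. The share of members higher by 1.5-fold was below that of all genes in these classes. With the scalings to TMM or DESeq2 factors the median of all genes moved by over 0.1 on the log2 scale in NK-ILC1-like (0.15 and 0.16), B-like (0.31 and 0.32) and plasmacytoid dendritic-like cells (0.17 and 0.17).

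**Figure D2:**
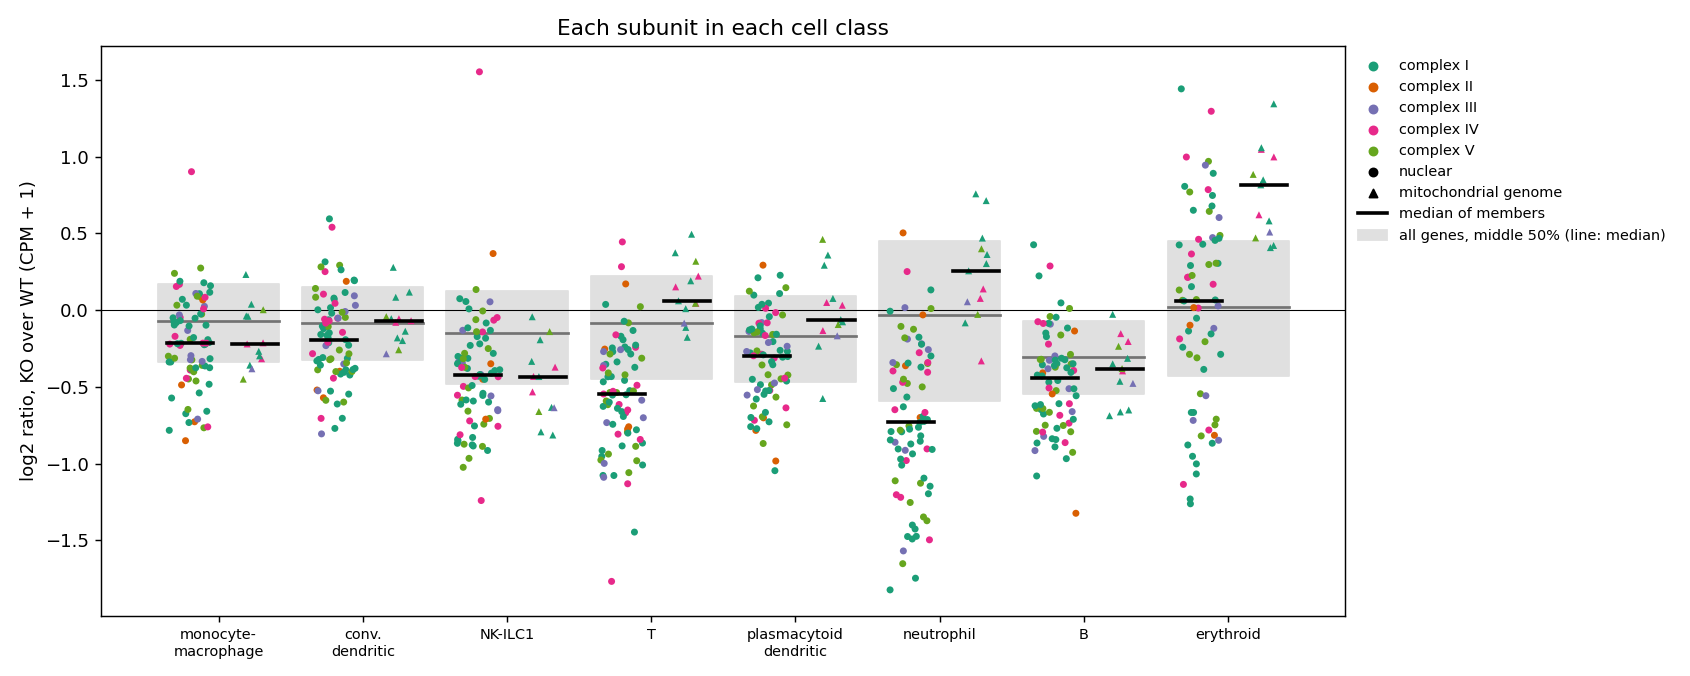
Log2 ratio of KO over WT of each subunit with at least 20 UMIs in 8 classes, nuclear subunits as circles and mitochondrial-genome subunits as triangles, coloured by complex, with black bars at their medians. The grey band and line give the middle 50% and the median of all genes of the class, and in T-like and neutrophil-like cells the nuclear median (-0.55 and -0.73) lies below that band while the mitochondrial-genome median (0.06 and 0.26) does not.

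The complexes differed little from each other within T-like cells. The median log2 ratio of nuclear members was -0.52 for complex I, -0.51 for complex II, -0.64 for complex III, -0.55 for complex IV and -0.54 for complex V. As shares of T-like UMIs, the nuclear part of complex I took 0.403% in WT and 0.280% in KO, that of complex IV 0.329% and 0.211%, and that of complex V 0.413% and 0.291%. The mitochondrial part of complex IV, its 3 catalytic core proteins, took 1.03% and 1.12%, and that of complex I 0.417% and 0.426%. In both complexes I and IV the nuclear part was lower in KO and the mitochondrial part was not, over the class as a whole.

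Of the nuclear members 76 passed the minimum in all 7 leukocyte classes, and 44 of them had a lower KO level in all 7, while 0 had a higher one in all 7. Of the 8072 genes that passed in all 7, 19.3% were lower in all 7. With TMM scaling 30 of the 76 were lower in all 7, with DESeq2 size factors 29 and without haemoglobin in the total 28, beside 12.1%, 11.2% and 10.2% of all genes. In each of these 3 scalings 1 member, Sdha, was higher in all 7. The members at the low end were Ndufa8, Atp5o, Cox5a, Ndufa12 and Ndufs8, with median log2 ratios over the classes of -0.88 to -0.84.

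**Figure D3:**
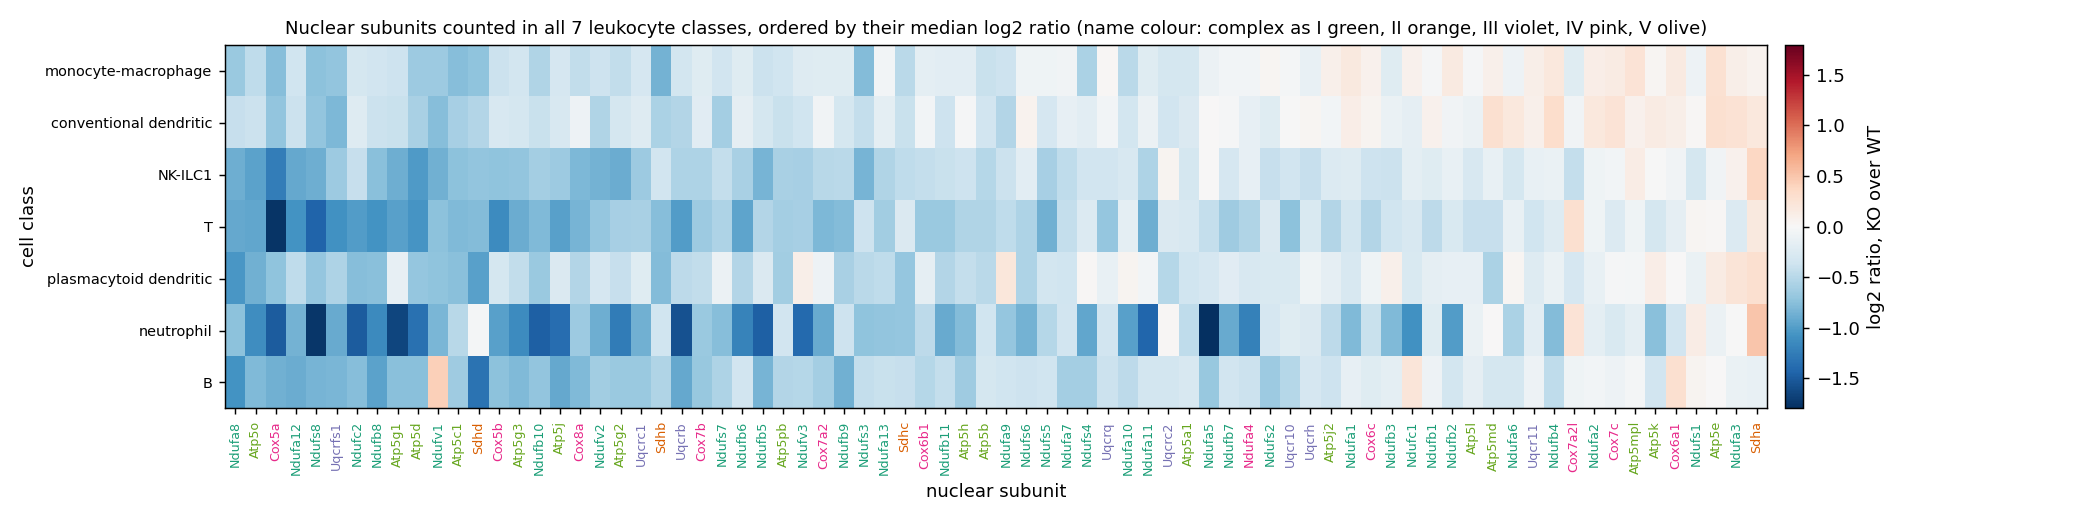
Log2 ratio of KO over WT (colour, blue lower and red higher in KO) of the 76 nuclear subunits with at least 20 UMIs in each of 7 leukocyte classes (rows), ordered from the lowest median (Ndufa8, -0.88) to the highest (Sdha, 0.19). T-like and neutrophil-like rows hold the darkest blues, and the right end holds subunits near 0 in most classes.

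Cox5a encodes a subunit of complex IV that faces the mitochondrial matrix. It stood at 471 CPM in WT T-like cells and 137 CPM in KO, a ratio of 0.292 (0.277 to 0.308). NK-ILC1-like cells had 365 CPM in WT against 154 in KO, neutrophil-like cells 199 against 69.8, and monocyte-macrophage-like cells 424 against 250. Cox5a was lower in KO by 1.5-fold or more in all 7 leukocyte classes, as were Ndufs8, an iron-sulphur subunit of complex I, and Atp5d, a stalk subunit of complex V, beside 0.942% of all genes. With TMM scaling Cox5a kept that distance in 5 classes, Ndufs8 in 5 and Atp5d in 3, and all 3 genes stayed lower in KO in all 7. Ndufs8 stood at 47.4 CPM in WT and 16.7 CPM in KO T-like cells, and at 18.4 and 4.79 CPM in neutrophil-like cells, the last value from 9 UMIs.

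Complex II, succinate dehydrogenase, is the only complex with no mitochondrial-genome subunit and also works in the tricarboxylic acid cycle. Its catalytic flavoprotein Sdha stood apart from its partners. In T-like cells Sdha was at 103 CPM in WT and 116 CPM in KO (ratio 1.13, 1.052 to 1.207), while the iron-sulphur subunit Sdhb was at 101 and 59.4 CPM (0.586, 0.538 to 0.639). The membrane anchors Sdhc and Sdhd were at 52.8 and 44.1 CPM and at 43.8 and 25.2 CPM. Sdha was higher in KO in 6 of the 7 leukocyte classes, the exception being B-like cells at 109.6 and 99.7 CPM, and its intervals included equality in 4 of the 7 classes. Sdhb, Sdhc and Sdhd were each lower in KO in all 7 under the scaling to CPM. Sdhd alone turned in 1 class, neutrophil-like cells, where its log2 ratio of -0.03 became 0.026 without haemoglobin in the total.

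A few other nuclear subunits did not share the low KO level. Atp5e, the epsilon subunit of complex V, was at 538 CPM in WT and 651 CPM in KO monocyte-macrophage-like cells (ratio 1.21, 1.162 to 1.260), and at 481 and 590 CPM in conventional dendritic-like cells. Cox7a2l, which helps to join complexes III and IV into supercomplexes, was at 163 and 198 CPM in T-like cells (1.22, 1.155 to 1.285). Cox6a1 was at 115 and 141 CPM in B-like cells. In NK-ILC1-like cells Sdha, Atp5mpl and Ndufa3 were the 3 highest members with at least 50 UMIs, at log2 ratios of 0.37, 0.13 and 0.07, and the 1 member past 1.5-fold higher was Cox6a2, at 9 WT and 17 KO UMIs.

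The 13 mitochondrial-genome members come from long shared transcripts, yet they did not move as one. The gene mt-Nd3, for a core membrane subunit of complex I, was at 281 CPM in WT T-like cells and 396 CPM in KO (ratio 1.41, 1.357 to 1.466), and mt-Nd2 was at 673 and 873 CPM. By contrast mt-Nd4 was at 1301 and 1203 CPM (0.925, 0.906 to 0.944), mt-Nd1 at 1277 and 1130 CPM, and mt-Cytb, the complex III core, at 1190 and 1122 CPM. In T-like cells 10 of the 13 were higher in KO and 3 lower, and the share of all genes above 0 is not given. Past 1.5-fold there were 0 in either direction, beside 9.87% of all genes higher and 19.3% lower. In neutrophil-like cells mt-Nd2 and mt-Nd3 were the 2 members past 1.5-fold, both higher, at 126 and 208 CPM and at 55.3 and 94.2 CPM, a share of the 13 below the 19.5% of all genes higher in this class. Within cluster 1, which held 1295 of the 1434 KO cells, 12 of the 13 were higher by 1.5-fold (13.4% of all genes there), mt-Co1 being the other. Within cluster 6 only mt-Atp8 was (13.3%), from 15 KO UMIs and with an interval (0.924 to 2.913) that includes equality. There mt-Nd6 was lower by 1.5-fold, at 36 WT UMIs and 1 KO UMI, and the share of all genes lower in this cluster is not given.

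NK-ILC1-like cells had all 13 lower in KO, 5 of them past 1.5-fold, and B-like cells likewise had all 13 lower, 3 of them past it. Of all genes 64.1% were below 0 and 19.6% past 1.5-fold lower in the first class, and 80.1% and 22.2% in the second, so the B-like share past 1.5-fold is that of all genes. The widest NK-ILC1-like difference was that of mt-Nd4, at 1461 CPM in WT and 830 in KO (0.569, 0.543 to 0.596), beside 278 and 243 CPM for mt-Nd3. Over the 7 leukocyte classes mt-Nd3 ranged from -0.19 to 0.76 on the log2 scale and mt-Nd4 from -0.81 to -0.08. The order of the pair, mt-Nd3 above mt-Nd4, held in all 7 classes.

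Isoforms tied to a tissue in other settings were mostly near the limit of counting. Cox6a2, known as the heart and muscle isoform of subunit 6a, was an exception: it stood at 709 CPM in WT plasmacytoid dendritic-like cells (660 to 761) and 456 CPM in KO (419 to 495). In the other 7 classes compared it was between 0.18 and 1.49 CPM in WT and between 0 and 6.32 CPM in KO. After thinning each cell to 1000 UMIs, 36.3% of the WT plasmacytoid dendritic-like cells had a Cox6a2 UMI (30.3 to 42.6) and 27.3% of the KO cells (22.3 to 32.9), against 53.9% and 40.0% before thinning. The thinned share in T-like cells was 0.122% in WT and 0.093% in KO, with median depths before thinning of 2694 and 1892 UMIs against 2882 and 2731 in the plasmacytoid class. Whether the few UMIs in other classes come from free RNA was not tested. NK-ILC1-like cells had 1.49 CPM in WT and 6.32 CPM in KO, the opposite order from the plasmacytoid class.

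Cox6b2, the testis isoform of subunit 6b, was at 9.96 CPM in WT and 25.9 CPM in KO erythroid-like cells, and at 5.47 and 11.1 CPM in monocyte-macrophage-like cells. Cox7b2, Cox8b, Cox8c, Ndufa4l2 and Ndufb11b passed the minimum in none of the 8 classes. The 3 genes of the ATP synthase c subunit, which differ in their import sequences but make the same mature protein, moved alike in T-like cells: Atp5g1 was at 137 CPM in WT and 69.1 CPM in KO, Atp5g2 at 289 and 191, and Atp5g3 at 295 and 159.

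Erythroid-like cells went another way. Their nuclear subunits took 0.116% of UMIs in WT and 0.145% in KO (ratio 1.26, 1.209 to 1.304), and their mitochondrial-genome subunits 0.290% and 0.503% (1.73, 1.695 to 1.771). Of 70 nuclear members 17 were lower and 14 higher by 1.5-fold, beside 18.7% and 18.2% of all genes, with a median of 0.06. That median was -0.19 without haemoglobin in the total, and 1.02 after free RNA was subtracted, with 1 member lower and 31 higher by 1.5-fold, so both the direction and the size rest on the processing. The share of all genes past 1.5-fold after the subtraction is not given. The mitochondrial-genome members were higher in all 13 cases, from 0.41 to 1.34 on the log2 scale, beside a median of 0.020 over all genes. The share of all genes above 0 in this class is not given. Haemoglobin took 87.9% of the UMIs of this class in WT and 85.4% in KO.

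The T-like class was not made of the same clusters in both libraries. Of its 5711 WT cells 3265 lay in cluster 2, and of its 5201 KO cells 3249 lay in cluster 0. The plot by cluster shows that nuclear subunits were lower in KO within each of the 6 T-like clusters with at least 50 cells per library, but by less than in the class as a whole in 5 of them. In cluster 0 they took 1.04% of UMIs in WT and 0.891% in KO, and in cluster 2 1.16% and 1.05%, the KO value from 79 cells.

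Cox5a remained lower in KO within all 6 clusters, at 256 CPM in WT and 135 CPM in KO in cluster 0, 225 and 112 in cluster 11, and 695 and 343 in cluster 14. Sdha stayed close to its WT level in all 6, with intervals that included equality (108 and 119 CPM in cluster 0). Mitochondrial-genome subunits, higher in KO over the whole T-like class, were below 0 on the log2 scale in each of the 6 clusters, from -0.04 in cluster 2, where the interval (-0.092 to 0.012) includes equality, to -0.34 in cluster 12, and mt-Nd1 and mt-Nd4 were lower in all 6.

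**Figure D4:**
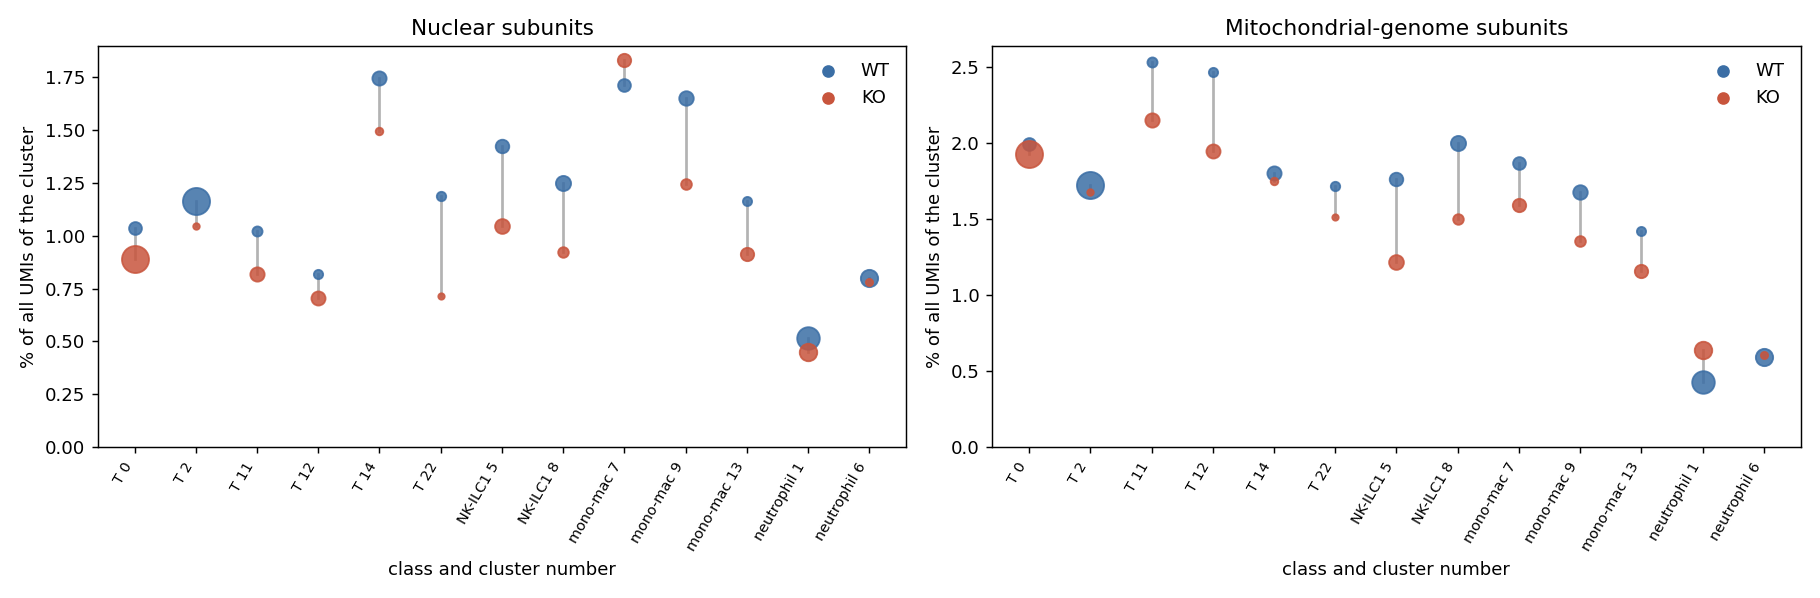
Share of UMIs on nuclear (left) and mitochondrial-genome (right) subunits in WT (blue) and KO (red) for the T-like, NK-ILC1-like, monocyte-macrophage-like and neutrophil-like clusters with at least 50 cells per library, with circle area growing with the number of cells. Nuclear shares are lower in KO in each of these clusters but cluster 7 of the monocyte-macrophage-like class, by less than counting error in neutrophil-like cluster 6, and neutrophil-like cluster 1 has a higher mitochondrial-genome share in KO.

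Neutrophil-like cells also differed in makeup, with 2231 of 3956 WT cells and 1295 of 1434 KO cells in cluster 1. Within that cluster the nuclear subunits took 0.518% in WT and 0.452% in KO, and the mitochondrial-genome subunits 0.427% and 0.639%. Cluster 6 had 0.802% and 0.780% on nuclear subunits, from 1259 WT and 123 KO cells, a log2 ratio of -0.041 whose interval (-0.095 to 0.012) includes equality. Among monocyte-macrophage-like clusters, cluster 7 had a higher nuclear share in KO, at 1.71% and 1.83%, while clusters 9 and 13 had lower ones, at 1.65% and 1.24% and at 1.17% and 0.911%. Both NK-ILC1-like clusters had lower shares in KO, at 1.43% and 1.05% and at 1.25% and 0.923%.

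Cells with at least 1 UMI of any of the cell-division genes Mki67, Top2a, Ccnb1, Ccnb2, Cdk1 and Birc5 made up 37.5% of WT and 6.88% of KO T-like cells. They made up 22.1% and 2.44% of neutrophil-like cells. After thinning to 1000 UMIs per cell the shares were 23.9% and 4.86% in T-like and 14.4% and 2.27% in neutrophil-like cells, and free RNA was not removed from any of these calls. Without the cells that held such a UMI before thinning, the nuclear log2 ratio of sums was -0.35 in T-like and -0.34 in neutrophil-like cells. A lower KO level was thus measured among the remaining cells too, and the part of the cells left out in the rest of the difference was not tested.

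Over single cells, the median T-like cell had 1.10% of its UMIs on nuclear subunits in WT (quartiles 0.778 to 1.41) and 0.794% in KO (0.531 to 1.05). The median monocyte-macrophage-like cell had 1.52% and 1.11%. Plasmacytoid dendritic-like cells had medians of 1.19% and 0.895%, with a lower quartile of 0.839% in WT and 0.233% in KO, since the KO cells fell into a group near 0.2% and another near 1%. Over single T-like cells the Spearman coefficient between nuclear and mitochondrial-genome shares was -0.18 in the 5711 WT and -0.16 in the 5201 KO cells. Over the classes compared it ranged from -0.28 (1669 WT NK-ILC1-like cells) to 0.36 (3956 WT neutrophil-like cells), and in each case the cells share a library and the shares a total.

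The low group of plasmacytoid dendritic-like cells also had few ribosomal-protein transcripts. Cells with under 3% of UMIs on ribosomal-protein genes made up 11.3% of this class in WT (32 cells) and 31.9% in KO (107 cells). In KO their median nuclear subunit share was 0.160%, against 1.12% in the rest, while their median mitochondrial-genome share was 2.67% against 1.69% and that of the nuclear RNA Malat1 was 3.23% against 1.51%. Leaving such cells out moved the log2 ratio of summed nuclear subunits in this class from -0.31 to -0.16 and left that of T-like cells at -0.53. Cells under this limit occurred in other classes too, at 7.42% of WT and 9.09% of KO T-like cells and 9.79% and 13.7% of B-like cells. In KO T-like cells their median nuclear share was 0.214% against 0.840% in the rest. Their median mitochondrial-genome share was 3.46% against 1.77% there, but 1.21% against 1.29% in KO monocyte-macrophage-like cells. What sets these cells apart was not tested.

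**Figure D5:**
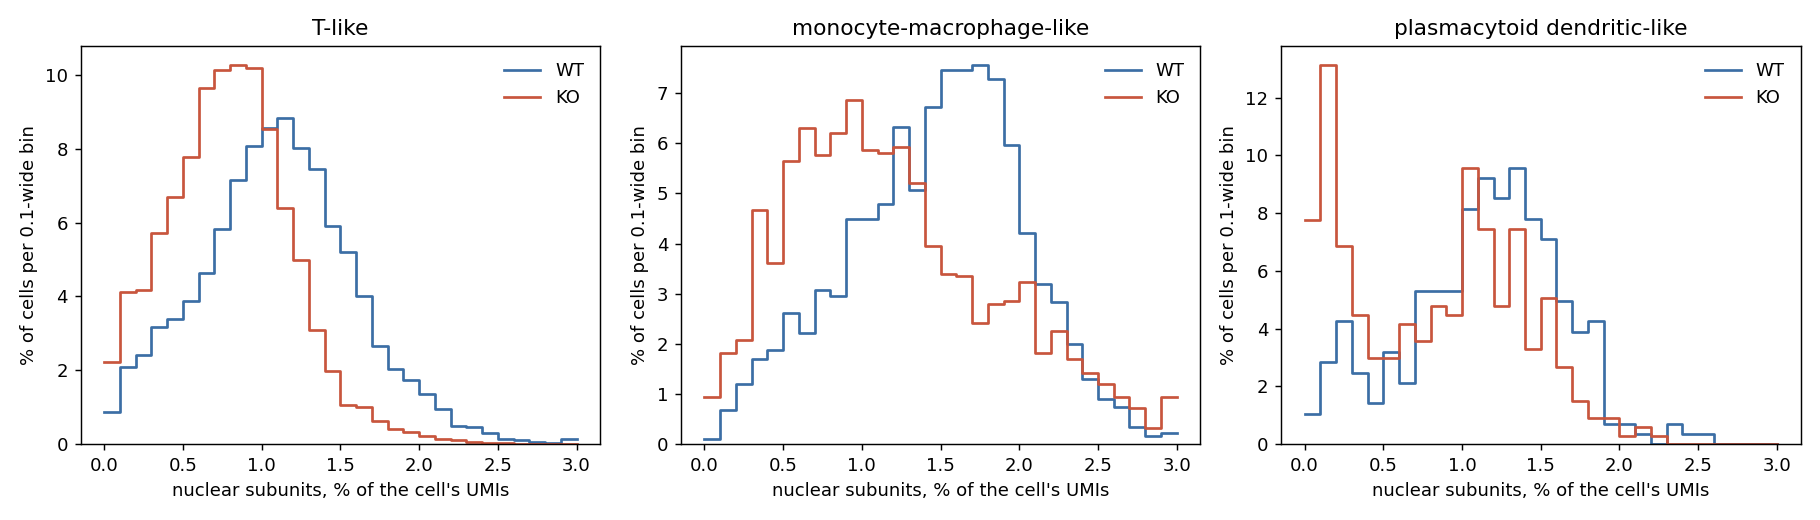
Share of cells (vertical) by the percent of a cell's UMIs on nuclear subunits (horizontal, bins 0.1 wide, the last bin holding all higher values) in WT (blue) and KO (red) for 3 classes. The T-like curve peaks lower in KO, and the KO plasmacytoid dendritic-like cells show an added peak below 0.3%.

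The T-like values of related genes are for the whole class, whose clusters differ between the libraries, and none is given with clusters weighted alike. What part of these differences goes with that makeup was not tested. Among related genes, the carriers and neighbours of the chain (22 genes) lay as low as the subunits in T-like cells, with a median log2 ratio of -0.65. Of the 22 genes 13 were lower by 1.5-fold, beside 19.3% of all genes. Cycs, the cytochrome c that carries electrons to complex IV, was at 160.5 CPM in WT and 72.6 CPM in KO, and Cyc1, the cytochrome c1 of complex III, at 60.7 and 27.1 CPM. Ndufab1, the acyl carrier protein of complex I, was at 89.1 and 44.3 CPM. Cox4i1, a large nuclear subunit of complex IV, was at 431 and 267 CPM. The mitochondrial ribosome, which makes the mitochondrial-genome proteins, had a median of -0.53. Of its 78 genes 35 were lower by 1.5-fold and 0 higher (19.3% and 9.87% of all genes).

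Glycolysis genes were lower still over the whole T-like class, with a median of -1.08 and 11 of 14 lower by 1.5-fold (19.3% of all genes). They were led by Gapdh, whose many near-identical copies could share its reads, at 775 and 178 CPM. Clusters were not weighted alike for any of the genes and lists in this paragraph. Mitochondrial genome expression factors (median -0.06), assembly factors (-0.11) and tricarboxylic acid cycle enzymes (-0.19) lay nearer the -0.08 of all genes. So did the cytosolic ribosome at -0.05 in T-like cells, but not in NK-ILC1-like (-0.75), neutrophil-like (-0.79) or B-like cells (-0.58). Of the biogenesis regulators, Nrf1 was at 185 and 174 CPM in T-like cells and Gabpa at 33.9 and 27.4 CPM. Ppargc1b, a coactivator of mitochondrial gene programmes, was at 18.7 CPM in WT and 44.9 CPM in KO T-like cells (ratio 2.40, 2.097 to 2.739).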

How the data were processed

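Single-cell 3' RNA-seq (10x v3.1) was analysed in 1 WT and 1 KO library. The deposited values were raw UMI counts per gene and barcode, made by the authors with Cell Ranger 8.0.1 per the file headers, while the submitters' processing notes list mm39, Seurat 4.3.0 and another Cell Ranger version, 6.0.1. Barcodes with under 200 genes (1919 WT, 9283 KO) or over 20% mitochondrial UMIs (111, 75) and Scrublet doublets (2757, 2218) were removed. Cells were clustered together in scanpy 1.11.5 (2000 variable genes without the subunits, 30 components, 15 neighbours, Leiden resolution 1 with leidenalg 0.10.2), giving 26 clusters. A class needed 3 markers at least 2-fold higher and seen in 10% of cells, and clusters whose leading genes pointed elsewhere stayed unnamed. UMIs were summed per class and library and scaled to CPM. The class totals set the depth, and sums carry exact Poisson intervals, shares exact binomial ones and ratios exact conditional binomial ones, checked on simulated data.

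Members, gene lists and comparisons were chosen with earlier results of these data known. The clustering was also changed 2 times after clusters and subunit values had been seen: erythroid-like clusters were made to need a median of 75% haemoglobin, and then the best of 10 seeded Leiden runs by its objective replaced a single run. Values from those earlier partitions are not given. Naming thresholds were set after the data were seen. Class names were rebuilt from markers. Each genotype being 1 library, no comparison has a p-value. Named members were the 3 highest and 3 lowest nuclear members with at least 50 UMIs per class, all mitochondrial-genome and complex II members, tissue isoforms and, per related list, the 2 highest and 2 lowest in T-like cells, and others named in the text were picked after their values were seen. Alternatives were edgeR 4.0.16 TMM, DESeq2 1.42.0 size factors, other totals, filters, pseudocounts, doublets, thinning, free-RNA subtraction and clustering. Weighting clusters alike, leaving out cells under 3% ribosomal-protein UMIs and leaving out shared barcodes were added after seeing the data.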

Additional observations from a re-analysis of the deposited data

How the results depend on the processing

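No paired analysis was possible because each genotype has 1 library, and for the same reason no replicate was left out. Listed here are the values that left their own counting interval, the counts of members that shifted by over 1.5 times and the signs that turned, all as log2 KO over WT except the counts. The genome ratio is that of mitochondrial-genome to nuclear UMIs, and class names are given without "-like". The cause of each shift was not tested. The share of all genes past 1.5-fold is not given for these settings, so the counts of members cannot be set against it. Stricter cell filters and leaving out cells over 10% haemoglobin gave no value for erythroid-like cells, cells low in ribosomal-protein UMIs were not left out of neutrophil-like or erythroid-like cells, and B-like, erythroid-like and plasmacytoid dendritic-like cells were a single cluster each, with nothing to weight. Depth limits members with few UMIs, such as Cox6b2.

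With TMM scaling, the nuclear sum was -0.46 (T), -0.10 (monocyte-macrophage), -0.26 (NK-ILC1), -0.094 (B), -0.051 (conventional dendritic), -0.14 (plasmacytoid dendritic). The mitochondrial sum with TMM scaling was 0.16 (T), -0.21 (monocyte-macrophage), -0.38 (NK-ILC1), -0.051 (B), 0.75 (erythroid), -0.025 (conventional dendritic), 0.14 (plasmacytoid dendritic). With TMM scaling, members past 1.5-fold numbered 16 (NK-ILC1), 6 (B, plasmacytoid dendritic), 4 (conventional dendritic) lower and 2 (B, conventional dendritic) higher. With DESeq2 size factors, the nuclear sum was -0.45 (T), -0.091 (monocyte-macrophage), -0.25 (NK-ILC1), -0.087 (B), -0.052 (conventional dendritic), -0.13 (plasmacytoid dendritic). The mitochondrial sum with DESeq2 size factors was 0.17 (T), -0.20 (monocyte-macrophage), -0.37 (NK-ILC1), -0.045 (B), -0.026 (conventional dendritic), 0.14 (plasmacytoid dendritic). With DESeq2 size factors, members past 1.5-fold numbered 16 (NK-ILC1), 6 (B, plasmacytoid dendritic), 4 (conventional dendritic) lower and 2 (B, conventional dendritic) higher. Without haemoglobin in the total, the nuclear median was -0.047 (monocyte-macrophage), -0.20 (NK-ILC1). The nuclear sum without haemoglobin in the total was -0.46 (T), -0.51 (neutrophil), 0.00028 (monocyte-macrophage), -0.19 (NK-ILC1), -0.11 (B), 0.068 (erythroid), -0.041 (conventional dendritic), -0.12 (plasmacytoid dendritic). The mitochondrial sum without haemoglobin in the total was 0.16 (T), 0.049 (neutrophil), -0.11 (monocyte-macrophage), -0.31 (NK-ILC1), -0.066 (B), 0.53 (erythroid), -0.015 (conventional dendritic), 0.15 (plasmacytoid dendritic). Without haemoglobin in the total, members past 1.5-fold numbered 4 (monocyte-macrophage, conventional dendritic), 14 (NK-ILC1), 6 (B), 5 (plasmacytoid dendritic) lower and 2 (NK-ILC1, conventional dendritic), 1 (B), 8 (erythroid) higher. With a pseudocount of 0.1, members past 1.5-fold numbered 1 (T), 2 (conventional dendritic) higher. With a pseudocount of 10, members past 1.5-fold numbered 1 (erythroid), 3 (conventional dendritic) lower and 0 (monocyte-macrophage, NK-ILC1, conventional dendritic), 6 (erythroid) higher. With no minimum count, members past 1.5-fold numbered 1 (B), 2 (conventional dendritic) higher. With a minimum of 100 UMIs, members past 1.5-fold numbered 1 (erythroid) lower and 0 (NK-ILC1, conventional dendritic), 8 (erythroid) higher. With 500 genes and 10% mitochondrial UMIs as limits, the nuclear sum was -0.53 (T, neutrophil), -0.16 (monocyte-macrophage). The mitochondrial sum with 500 genes and 10% mitochondrial UMIs as limits was -0.11 (neutrophil), -0.51 (NK-ILC1), -0.34 (B), -0.080 (plasmacytoid dendritic). The genome ratio with 500 genes and 10% mitochondrial UMIs as limits was 0.61 (T), 0.41 (neutrophil), -0.13 (monocyte-macrophage), 0.21 (plasmacytoid dendritic). With no mitochondrial limit, the mitochondrial sum was 0.037 (T), 0.021 (neutrophil), -0.31 (monocyte-macrophage), -0.49 (NK-ILC1), 0.67 (erythroid), -0.095 (plasmacytoid dendritic). The genome ratio with no mitochondrial limit was 0.58 (T), 0.60 (neutrophil), -0.14 (monocyte-macrophage), -0.089 (NK-ILC1), 0.34 (erythroid), 0.21 (plasmacytoid dendritic). With doublets kept, the nuclear sum was -0.51 (neutrophil), -0.21 (monocyte-macrophage), -0.43 (NK-ILC1), -0.34 (B). The mitochondrial sum with doublets kept was 0.055 (neutrophil), -0.26 (monocyte-macrophage), -0.50 (NK-ILC1), -0.32 (B), 0.73 (erythroid), -0.13 (conventional dendritic), -0.0015 (plasmacytoid dendritic). The genome ratio with doublets kept was -0.049 (monocyte-macrophage), -0.070 (NK-ILC1), 0.39 (erythroid), 0.33 (plasmacytoid dendritic). With doublets kept, members past 1.5-fold numbered 1 (neutrophil), 2 (conventional dendritic) higher. Without cells over 10% haemoglobin, the nuclear median was -0.026 (monocyte-macrophage), -0.20 (NK-ILC1). The nuclear sum without cells over 10% haemoglobin was -0.49 (T), 0.012 (monocyte-macrophage), -0.20 (NK-ILC1), -0.15 (B), -0.019 (conventional dendritic), -0.075 (plasmacytoid dendritic). The mitochondrial sum without cells over 10% haemoglobin was 0.14 (T), -0.14 (monocyte-macrophage), -0.33 (NK-ILC1), -0.11 (B), -0.072 (conventional dendritic), 0.071 (plasmacytoid dendritic). The genome ratio without cells over 10% haemoglobin was -0.15 (monocyte-macrophage), -0.053 (conventional dendritic), 0.15 (plasmacytoid dendritic). Without cells over 10% haemoglobin, members past 1.5-fold numbered 3 (monocyte-macrophage, conventional dendritic, plasmacytoid dendritic), 11 (NK-ILC1), 7 (B) lower and 1 (neutrophil, B, plasmacytoid dendritic), 0 (monocyte-macrophage, conventional dendritic), 2 (NK-ILC1) higher. Without cells holding a division-gene UMI, the nuclear median was -0.37 (T). The nuclear sum without cells holding a division-gene UMI was -0.35 (T), -0.34 (neutrophil, NK-ILC1), -0.37 (B), -0.26 (plasmacytoid dendritic). The mitochondrial sum without cells holding a division-gene UMI was 0.039 (T), 0.35 (neutrophil), -0.56 (NK-ILC1), -0.15 (conventional dendritic). The genome ratio without cells holding a division-gene UMI was 0.39 (T), 0.69 (neutrophil), -0.21 (NK-ILC1), -0.025 (conventional dendritic), 0.20 (plasmacytoid dendritic). Without cells holding a division-gene UMI, members past 1.5-fold numbered 19 (T), 31 (neutrophil) lower and 1 (T, plasmacytoid dendritic), 0 (NK-ILC1) higher. After thinning to 1000 UMIs, the nuclear median was -0.44 (T). The nuclear sum after thinning to 1000 UMIs was -0.40 (T), -0.42 (neutrophil), -0.25 (monocyte-macrophage), -0.26 (NK-ILC1), -0.30 (B), -0.22 (conventional dendritic), -0.36 (plasmacytoid dendritic). The mitochondrial sum after thinning to 1000 UMIs was 0.017 (T), 0.19 (neutrophil), -0.43 (monocyte-macrophage), -0.63 (NK-ILC1), 1.00 (erythroid), -0.21 (conventional dendritic). The genome ratio after thinning to 1000 UMIs was 0.41 (T), 0.61 (neutrophil), -0.19 (monocyte-macrophage), -0.36 (NK-ILC1), -0.063 (B), 0.62 (erythroid), 0.0071 (conventional dendritic), 0.35 (plasmacytoid dendritic). After thinning to 1000 UMIs, members past 1.5-fold numbered 23 (T), 14 (NK-ILC1), 5 (erythroid), 16 (conventional dendritic) lower and 0 (NK-ILC1, conventional dendritic), 1 (B) higher. After subtracting free RNA, the nuclear median was 1.02 (erythroid). The nuclear sum after subtracting free RNA was -0.36 (B), 0.88 (erythroid). The mitochondrial sum after subtracting free RNA was 0.094 (T), -0.045 (neutrophil), 1.04 (erythroid). The genome ratio after subtracting free RNA was 0.53 (neutrophil), -0.15 (NK-ILC1), -0.012 (B), 0.16 (erythroid). After subtracting free RNA, members past 1.5-fold numbered 1 (erythroid) lower and 1 (B), 31 (erythroid) higher. At resolution 0.5, the nuclear sum was -0.85 (neutrophil), -0.26 (B). The mitochondrial sum at resolution 0.5 was -0.30 (neutrophil), -0.25 (B), 0.85 (erythroid). At resolution 0.5, members past 1.5-fold numbered 14 (B) lower and 0 (conventional dendritic) higher. Without cells under 3% ribosomal-protein UMIs, the nuclear sum was -0.53 (T), -0.36 (NK-ILC1, B), -0.16 (plasmacytoid dendritic). The mitochondrial sum without cells under 3% ribosomal-protein UMIs was -0.26 (monocyte-macrophage), -0.47 (NK-ILC1), -0.30 (B). The genome ratio without cells under 3% ribosomal-protein UMIs was -0.10 (monocyte-macrophage), 0.14 (plasmacytoid dendritic). Without cells under 3% ribosomal-protein UMIs, members past 1.5-fold numbered 8 (plasmacytoid dendritic) lower. With clusters weighted alike, the nuclear median was -0.29 (T), -0.12 (neutrophil). The nuclear sum with clusters weighted alike was -0.23 (T), -0.038 (neutrophil), -0.12 (monocyte-macrophage), -0.45 (NK-ILC1). The mitochondrial sum with clusters weighted alike was -0.10 (T), 0.15 (neutrophil), -0.25 (monocyte-macrophage), -0.46 (NK-ILC1). The genome ratio with clusters weighted alike was 0.13 (T), 0.19 (neutrophil), -0.13 (monocyte-macrophage), -0.010 (NK-ILC1). With clusters weighted alike, members past 1.5-fold numbered 9 (T), 7 (neutrophil) lower and 2 (neutrophil) higher. The highest and the lowest single cluster were picked anew for each value, so the values listed can come from different clusters. In the highest single cluster, the nuclear median was -0.20 (T), -0.13 (neutrophil), 0.023 (monocyte-macrophage). The nuclear sum in the highest single cluster was -0.15 (T), -0.041 (neutrophil), 0.10 (monocyte-macrophage), -0.44 (NK-ILC1), -0.11 (conventional dendritic). The mitochondrial sum in the highest single cluster was -0.040 (T), 0.58 (neutrophil), -0.23 (monocyte-macrophage), -0.42 (NK-ILC1), -0.055 (conventional dendritic). The genome ratio in the highest single cluster was 0.55 (T), 0.78 (neutrophil), 0.10 (monocyte-macrophage), 0.019 (NK-ILC1), 0.054 (conventional dendritic). As the largest count of any single cluster, members past 1.5-fold numbered 16 (neutrophil), 23 (monocyte-macrophage) lower and 1 (T) higher. In the lowest single cluster, the nuclear median was -0.76 (T), -0.26 (neutrophil), -0.41 (monocyte-macrophage). The nuclear sum in the lowest single cluster was -0.73 (T), -0.20 (neutrophil), -0.41 (monocyte-macrophage), -0.45 (NK-ILC1), -0.16 (conventional dendritic). The mitochondrial sum in the lowest single cluster was -0.34 (T), 0.034 (neutrophil), -0.31 (monocyte-macrophage), -0.16 (conventional dendritic). The genome ratio in the lowest single cluster was -0.12 (T), 0.074 (neutrophil), -0.33 (monocyte-macrophage), -0.089 (NK-ILC1), 0.0030 (conventional dendritic). As the smallest count of any single cluster, members past 1.5-fold numbered 7 (T), 9 (neutrophil), 4 (monocyte-macrophage) lower and 0 (monocyte-macrophage, NK-ILC1, conventional dendritic) higher.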
